A study of Homo sapiens with 3 samples.

Results

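The genes described here are those commonly read as markers of a stem-like state in breast cancer. Listed with them are genes of the aldehyde dehydrogenase (ALDH) family, an enzyme class whose activity is used to sort such cells. How much each listed ALDH gene adds to that activity was not measured here. The list held 10 gene symbols chosen by name, and 9 of them had a row among the 29689 genes of the expression table: ALDH1A1, ALDH1A3, ALDH3A1, ALDH3B2, CD44, PROM1, LGR5, KLF4 and BMI1. The tenth, CD24, had no row under its symbol. The tumors were grown from SUM-149, a triple-negative breast cancer (TNBC) cell line, by injecting the cells with Matrigel into the mammary fat pads of female Nu/Nu mice, which lack T cells but keep other host cells. RNA from 3 tumors was sequenced, with 1 library per condition. The vehicle tumor came from a mock treated mouse, the CDK2i tumor from a mouse given the CDK2 inhibitor dinaciclib for 10 days, and the EZH2i tumor from a mouse given an EZH2 inhibitor for 10 days, which the sample labels name as EPZ6438 while the legend of the published xenograft experiment names GSK343. With 1 library per condition there was no replicate error, so no test was made and every difference below is between single tumors. The values are log2 FPKM (fragments scaled by gene length and by the fragments of the library), and a bulk value cannot tell a smaller number of marker-positive cells from less RNA in each cell.

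Cancer stem cells are tumor cells that renew themselves and regrow a tumor, and in breast cancer they are usually isolated by high CD44 with low CD24 on the surface, by PROM1 (CD133), or by high ALDH enzyme activity. ALDH enzymes oxidize aldehydes, and ALDH1A1 and ALDH1A3 make retinoic acid from retinal. EZH2 is the enzyme of the Polycomb repressive complex PRC2 that trimethylates histone H3 at lysine 27, BMI1 is a subunit of the partner complex PRC1, and CDK2 is a cell cycle kinase that phosphorylates EZH2. Dinaciclib also inhibits other cyclin-dependent kinases, among them the transcriptional kinase CDK9.

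Of the expression changes from vehicle, 4 passed the thresholds of fold above 2 and a higher log2 FPKM of the pair above 3 (8 FPKM), for the genes ALDH1A1, ALDH3B2, CD44 and BMI1. RefSeq promoter entries (GRCh38.p14, 250 bases before the start to 50 after it) matched 7 of the 10 symbols. They are shown for the 3 of these genes that had one, with each CG dinucleotide, the site of DNA methylation in vertebrates, in capitals. All are written 5′ to 3′ on the gene's own strand. ALDH1A1 lies at chr9:72953004-72953303 on the minus strand, CD44 at chr11:35138921-35139220 on the plus strand, and BMI1 at chr10:22320849-22321148 on the plus strand.
ALDH1A1: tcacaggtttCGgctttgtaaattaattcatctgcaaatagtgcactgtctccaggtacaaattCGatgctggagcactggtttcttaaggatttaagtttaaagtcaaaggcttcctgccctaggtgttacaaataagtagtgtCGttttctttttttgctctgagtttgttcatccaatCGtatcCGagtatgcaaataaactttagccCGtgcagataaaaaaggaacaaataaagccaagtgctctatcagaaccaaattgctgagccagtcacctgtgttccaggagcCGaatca
CD44: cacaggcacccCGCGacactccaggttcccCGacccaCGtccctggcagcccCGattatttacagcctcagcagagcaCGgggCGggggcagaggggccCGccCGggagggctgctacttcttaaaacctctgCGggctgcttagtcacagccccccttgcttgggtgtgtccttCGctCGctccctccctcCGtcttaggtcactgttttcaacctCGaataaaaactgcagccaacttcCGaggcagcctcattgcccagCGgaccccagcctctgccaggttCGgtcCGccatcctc
BMI1: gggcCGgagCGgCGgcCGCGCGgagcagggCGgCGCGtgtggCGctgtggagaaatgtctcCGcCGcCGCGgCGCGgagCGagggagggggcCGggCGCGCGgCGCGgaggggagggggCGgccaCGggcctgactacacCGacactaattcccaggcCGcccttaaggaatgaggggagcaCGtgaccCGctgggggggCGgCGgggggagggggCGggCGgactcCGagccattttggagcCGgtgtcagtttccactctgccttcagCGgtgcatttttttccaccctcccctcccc
The motif searched was CG, whose matches on the other strand are the same sites. The ALDH1A1 promoter held 7 CG, and 39.3% of all 35116 promoter entries held as few or fewer. CD44 held 18, and 44.5% of promoters held as many or more. The BMI1 entry held 36, and 12.7% of promoters held as many or more. The median entry held 14. A second BMI1 entry held 65 CG and is not printed. These counts describe the sequences, since no promoter measurement was analysed here.

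The libraries were of similar depth, at about 16.8, 19.1 and 17.5 M fragments for vehicle, CDK2i and EZH2i, as read from the step that 1 fragment makes in the FPKM of weakly expressed genes. Ribosomal protein genes took 15.5%, 8.78% and 8.43% of the summed FPKM, so the vehicle library stood apart in this. A gene counted as expressed when its log2 FPKM averaged above 1 and no tumor listed it at the floor that stands for an FPKM of 0, which 11109 genes met. Their median change was -0.11 (CDK2i) and 0.19 (EZH2i), and the changes below are not shifted by it. Across 10200 of them the change in EZH2i ran with the GC content of the transcript (Spearman rho -0.581) and with its length (0.481), while in CDK2i the values were 0.0347 and 0.0907. Changes are therefore also given after a smooth trend on GC content and length was removed. The fit held a constant term, so the shift between the libraries was taken out together with the trend. A value with the trend removed thus differs from the deposited one by both, in CDK2i as well as in EZH2i. The spread named beside a change is the SD of the same change over the 200 genes nearest in mean expression. It holds drug effects as well as noise and is no replicate error. Intervals in brackets are 95% exact binomial intervals of the ratio of approximate fragment counts and cover counting error only.

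The ALDH genes went apart by treatment. ALDH1A1 rose in the CDK2i tumor and ALDH3B2 fell in the EZH2i tumor, while ALDH1A3 and ALDH3A1 stayed below the expression minimum in every tumor. ALDH1A1 (chromosome 9 of GRCh37, 75515587 to 75695358, minus strand) measured 7.58, 16.5 and 2.36 FPKM in the vehicle, CDK2i and EZH2i tumors, from about 361, 898 and 117 fragments. The CDK2i tumor was thus the highest and the EZH2i tumor the lowest. The log2 change was 1.13 in CDK2i [0.95 to 1.31], against a spread of 0.68, and the gene reached the minimum only through its CDK2i level. In EZH2i the change was -1.69 [-2.00 to -1.38], a level 3.22-fold lower than vehicle and beyond the spread of 0.62, but it was not called because the vehicle level of log2 FPKM 2.92 lay just under the minimum of 3. With the trend removed the changes were 1.35 and -2.02. The CDK2i call was lost, at 0.98, when the libraries were brought to the same summed FPKM over genes other than ribosomal protein and mitochondrial ones. Between the treated tumors ALDH1A1 differed by -2.81 (EZH2i minus CDK2i), which passed both thresholds, and this difference does not use the vehicle library.

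ALDH3B2 (chromosome 11, 67429626 to 67448695, minus strand), an isoenzyme of the ALDH3 class, was by far the most abundant of the 4 ALDH genes on the list. It measured 94.8, 108.6 and 33.7 FPKM in the vehicle, CDK2i and EZH2i tumors, so vehicle and CDK2i lay close together and EZH2i well below both. The CDK2i change of 0.20 [0.15 to 0.25] lay within the spread of 0.56. In EZH2i the transcript fell by 1.49 on the log2 scale [-1.56 to -1.42], 2.81-fold, against a spread of 0.53. The GC content of its transcript was 59.7%, above the median of 49.7%, and with the trend removed the change was -1.29. It remained past both thresholds in 7 of 7 scalings and pseudocounts, the deposited one included. The difference between the treated tumors was -1.69.

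The remaining ALDH genes were weak. ALDH3A1 (chromosome 17, 19641297 to 19652256, minus strand), which oxidizes aromatic and medium-chain aldehydes, measured 2.20, 2.56 and 0.373 FPKM in the vehicle, CDK2i and EZH2i tumors, or about 143, 190 and 25 fragments. Its CDK2i change of 0.22 [-0.10 to 0.54] was not distinguishable from counting error, whereas the EZH2i change of -2.56 [-3.25 to -1.96] exceeded the spread of 1.00 at a level too low to be called. ALDH1A3 (chromosome 15, 101417919 to 101456831, plus strand), the isoform that contributes much of the ALDH activity measured in breast cancer cells, measured 1.02, 1.86 and 1.76 FPKM in the vehicle, CDK2i and EZH2i tumors. Both treated tumors lay above vehicle, by 0.87 [0.51 to 1.25] and 0.79 [0.41 to 1.18], within the spreads of 1.08 and 0.95. The 2 retinal dehydrogenases on the list therefore had opposite signs in EZH2i and the same sign in CDK2i.

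Summed over the 4 ALDH genes, the transcript level was 105.6, 129.6 and 38.2 FPKM in the vehicle, CDK2i and EZH2i tumors. ALDH3B2 made up 89.8%, 83.8% and 88.3% of this sum, so the sum was mostly ALDH3B2. ALDH1A1 made up 7.18%, 12.8% and 6.17%. Without ALDH3B2 the sums were 10.8, 21.0 and 4.49 FPKM. Among all 19 ALDH genes of the table the summed level was 312, 315 and 209 FPKM. Leaving out ALDH3B2 and ALDH2, the mitochondrial enzyme that clears acetaldehyde, the rest of the family summed to 129, 154 and 132 FPKM in the vehicle, CDK2i and EZH2i tumors. ALDH2 itself measured 88.3, 52.5 and 43.0 FPKM. Of the 11 expressed ALDH genes outside the list, none was called in CDK2i (background 2.53% of all genes called in either direction) and ALDH2 alone was called lower in EZH2i, by -1.04 (background 1.1% lower and 3.33% in either direction over all genes, 13.4% past the minimum). Their medians were 0.13 (CDK2i) and 0.06 (EZH2i), against -0.11 and 0.19 over all expressed genes. FPKM measures transcript, and ALDH enzyme activity was not measured here.

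**Figure D1:**
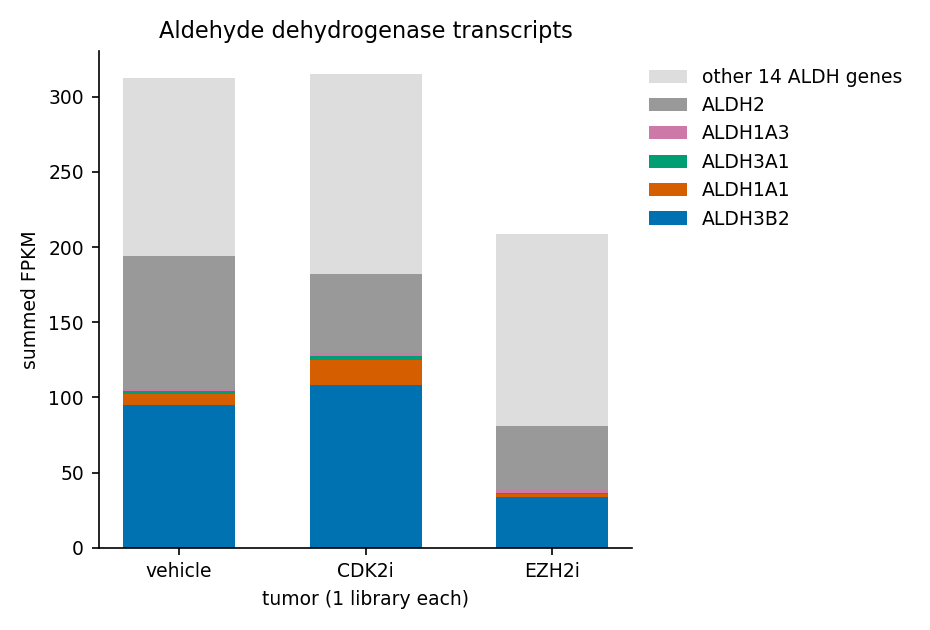
Summed FPKM of the ALDH genes in each tumor (1 library each), stacked by gene on a linear axis that starts at 0. ALDH3B2 measured 94.8, 108.6 and 33.7 FPKM in the vehicle, CDK2i and EZH2i tumors, ALDH2 fell from 88.3 to 43.0 in EZH2i, and the family without ALDH3B2 and ALDH2 summed to 129, 154 and 132 FPKM.

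Among the surface markers, CD44 was the abundant one and rose in the EZH2i tumor, while PROM1 and LGR5 were barely expressed. CD44 (chromosome 11, 35160429 to 35253949, plus strand), the hyaluronan receptor, measured 152, 190.3 and 340 FPKM in the vehicle, CDK2i and EZH2i tumors. It ranked above 98.7%, 98.8% and 99.5% of the genes with an FPKM above 0 in the same tumor. The treated tumors both lay above vehicle, and EZH2i was the highest. The CDK2i change of 0.33 [0.31 to 0.35] lay within the spread of 0.74. In EZH2i the change was 1.17 [1.14 to 1.19], 2.24-fold, against a spread of 0.67. Its transcript is GC-poor, at 44.3%, and long, at 5431 nt against a median of 3313.5, and with the trend removed the EZH2i change was 0.56, which no longer passed the fold threshold. After centring the libraries on their medians it was 0.92, also short of the threshold. FPKM per gene does not separate the standard and variant splice forms of CD44.

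PROM1 (CD133; chromosome 4, 15964699 to 16086001, minus strand), a pentaspan membrane glycoprotein, measured 0.343, 1.21 and 0.0919 FPKM in the vehicle, CDK2i and EZH2i tumors, from about 43, 173 and 12 fragments. CDK2i was again highest and EZH2i lowest, with changes of 1.83 [1.33 to 2.34] and -1.90 [-2.96 to -0.95] that exceeded the spreads of 1.35 and 1.27 but not the expression minimum. With a pseudocount of 1 FPKM they were 0.72 and -0.30. LGR5 (chromosome 12, 71833578 to 71980090, plus strand), the R-spondin receptor that marks stem cells of the intestine, measured 0.129, 0.295 and 0.0248 FPKM in the vehicle, CDK2i and EZH2i tumors. These values rest on about 11, 29 and 2 fragments. Its EZH2i change of -2.38 has a counting interval from -5.73 to -0.32, and with a pseudocount of 1 FPKM it was -0.14.

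CD24 encodes a small mucin-like glycoprotein anchored to the membrane, and low CD24 defines the CD44-high fraction used for sorting. The table held no row named CD24, but a row named CD24P4, a processed CD24 pseudogene on chromosome Y (GRCh37, 21154353 to 21154595, minus strand), stood at 266, 600.1 and 183 FPKM in the vehicle, CDK2i and EZH2i tumors. This row was not on the list and was taken up after its values were seen. The other 10 chromosome Y genes of the table reached at most 0.119 FPKM in any tumor. The annotated CD24P4 transcript is shown because this is the row of the table whose annotated sequence is a copy of CD24. It is written 5′ to 3′ from GENCODE 44 on GRCh37, chrY:21154353-21154595, minus strand, with its start and stop codons in capitals.
CD24P4: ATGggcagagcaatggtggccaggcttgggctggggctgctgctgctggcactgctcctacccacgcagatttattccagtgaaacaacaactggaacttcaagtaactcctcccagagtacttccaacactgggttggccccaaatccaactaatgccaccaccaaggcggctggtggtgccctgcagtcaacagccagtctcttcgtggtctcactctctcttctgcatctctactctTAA
Its 243 nt read as 81 codons, with the first stop at codon 81. In a BLAST search of the GRCh37 assembly used here, 2 of the 3 RefSeq promoter entries of CD24, which GRCh38 places on chromosome 6, matched chromosome Y directly upstream of CD24P4 (98.3% identity over 300 nt and 97.9% over 145 nt). There were 0 matches on chromosome 6. The CD24P4 transcript also matched chromosomes 15, 1, 20 and 3, at 89.4%, 79.7%, 76.7% and 75.2% identity. Whether the fragments of this row came from CD24 was not tested, and the gene length behind its FPKM is not known, which bears on its level but not on its change.

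In CDK2i the CD24P4 row rose by 1.18 on the log2 scale, past both thresholds, and in EZH2i its change was -0.54, within the spread of 0.69. The CDK2i tumor thus had the highest CD24P4 and the EZH2i tumor the highest CD44. The ratio of CD44 to CD24P4 was 0.570 in vehicle, 0.317 in CDK2i and 1.85 in EZH2i. On the log2 scale it changed by -0.85 in CDK2i and by 1.70 in EZH2i. A ratio within a library does not depend on the scaling between libraries. With the GC and length trend removed from CD44 alone, the changes were -0.70 and 1.10. This step also took the shift between libraries out of CD44 alone, so these values do depend on that scaling. The CD24P4 side was left uncorrected. Its annotated transcript, at 54.3% GC and 243 nt, is richer in GC and shorter than the medians of 49.7% and 3313.5 nt. Transcripts of that kind ran lower in EZH2i, and what a correction of CD24P4 would do to the ratio was not tested.

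Of the nuclear regulators, BMI1 rose in the EZH2i tumor by a margin that rested on the scaling, and KLF4 differed mainly between the treated tumors. BMI1 (chromosome 10, 22610028 to 22620413, plus strand) measured 6.29, 6.75 and 12.9 FPKM in the vehicle, CDK2i and EZH2i tumors. Vehicle and CDK2i were alike, at a change of 0.10 [-0.08 to 0.28], and EZH2i was the highest. The EZH2i change was 1.04 [0.87 to 1.20], 2.05-fold, against a spread of 0.67, and the gene reached the minimum only through its EZH2i level. It was 0.46 with the trend removed, 0.79 with the libraries centred on their median gene and 0.93 with a pseudocount of 1 FPKM, none of which passed. BMI1 overlaps the readthrough gene COMMD3-BMI1, and how the authors' counting divided the shared fragments is not known.

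KLF4 (chromosome 9, 110247133 to 110252763, minus strand), a zinc finger transcription factor of epithelial differentiation and one of the reprogramming factors, measured 24.8, 41.0 and 16.6 FPKM in the vehicle, CDK2i and EZH2i tumors. The order was the same as for ALDH1A1, with CDK2i highest and EZH2i lowest. Its changes from vehicle were 0.73 [0.64 to 0.82] and -0.58 [-0.69 to -0.47], beyond the spreads of 0.50 and 0.53 and short of the fold threshold. Between the treated tumors KLF4 differed by -1.31, which passed both thresholds.

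**Figure D2:**
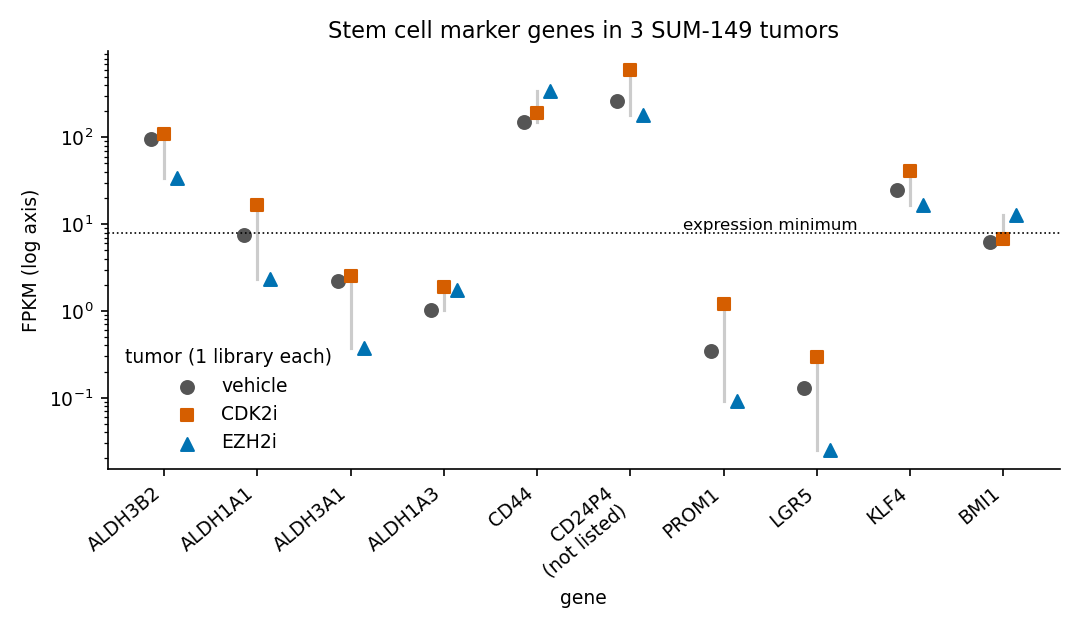
FPKM on a log axis of the 9 genes found and of the added CD24P4 row in the vehicle (circle), CDK2i (square) and EZH2i (triangle) tumors, with 1 library each. The dotted line marks the expression minimum of 8 FPKM, which PROM1 at 0.343, 1.21 and 0.0919 FPKM lies under in all 3 tumors, while CD44 at 152, 190.3 and 340 FPKM lies far above it.

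The order of the 9 genes by FPKM was the same in vehicle and CDK2i, from CD44 through ALDH3B2, KLF4, ALDH1A1, BMI1, ALDH3A1, ALDH1A3 and PROM1 to LGR5. In EZH2i it changed at 2 places, where BMI1 stood above ALDH1A1 and ALDH1A3 above ALDH3A1. In the absence of replicates it cannot be said which neighbors in the order differ. The closest in vehicle were ALDH1A1 and BMI1, at 7.58 and 6.29 FPKM.

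In CDK2i the values of all 9 genes lay above vehicle, most of them within their spread, with a median change of 0.73 and a range from 0.10 to 1.83, whereas 41.9% of all expressed genes were higher. The sign of BMI1, at 0.10, turned to -0.04 when the libraries were brought to the same summed FPKM over genes other than ribosomal protein and mitochondrial ones, and the other 8 kept their sign under each scaling. Of the 9, 1 was called higher (ALDH1A1) and 0 lower, while 0.731% and 1.8% of all 29689 genes were called. In EZH2i 3 of the 9 lay above vehicle (CD44, BMI1 and ALDH1A3) and 6 below, with a median of -1.49, whereas 38.5% of all expressed genes were lower. Here 2 were called higher, where the background was 2.23%, and 1 lower, where it was 1.1% (3.33% in either direction). Between the treated tumors 3 were called lower in EZH2i (ALDH1A1, ALDH3B2 and KLF4; background 1.62%) and 0 higher (4.37%, or 5.99% in either direction). These backgrounds are over all genes of the table, most of which lay under the expression minimum and could not be called. Over the genes past the minimum the background in CDK2i was 3.27% higher and 8.07% lower (11.3% in either direction), and 4 of the 9 genes were past it. In EZH2i it was 8.93% higher and 4.42% lower (13.4%), again with 4 of the 9 past it, and between the treated tumors 17.5% higher and 6.52% lower (24.1%), with 5 of the 9.

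Both comparisons use the 1 vehicle library and are not independent. Set side by side, the changes in CDK2i and EZH2i were 1.13 and -1.69 for ALDH1A1, 1.83 and -1.90 for PROM1, and 0.73 and -0.58 for KLF4. The difference between the treated tumors does not use the vehicle library. In it 7 of the 9 genes lay lower in EZH2i, with a median of -1.69, whereas 33.0% of expressed genes lay lower and their median was 0.35. Over all genes with no value at the floor, 33.5% lay lower and the median was 0.40. The 7 include the weakly expressed ALDH1A3, ALDH3A1, PROM1 and LGR5. CD44 and BMI1 lay higher in EZH2i, by 0.84 and 0.93, neither past the fold threshold. With the trend removed the same 7 lay lower, with a median of -1.63, and CD44 and BMI1 stood at 0.09 and 0.19. The genes that lay below vehicle in EZH2i had transcripts on both sides of the median GC content, from 42.0% for ALDH1A1 to 61.0% for ALDH3A1.

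**Figure D3:**
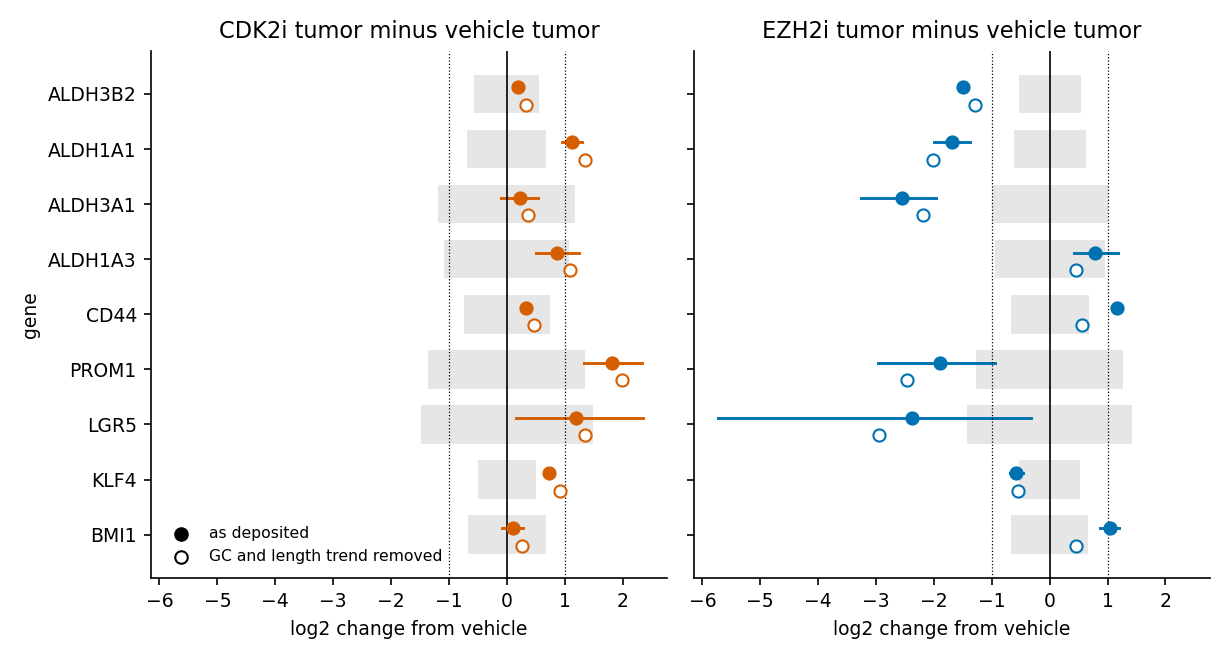
Log2 change from vehicle of each of the 9 genes in the CDK2i and EZH2i tumors (1 library per condition), as deposited (filled points, with 95% counting intervals as lines) and with the GC and length trend removed (open points), where grey bars show the spread over the 200 genes nearest in expression, centred on 0, and dotted lines a fold of 2. ALDH1A1 sits at 1.13 in CDK2i and -1.69 in EZH2i, and CD44 at 0.33 and 1.17.

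**Figure D4:**
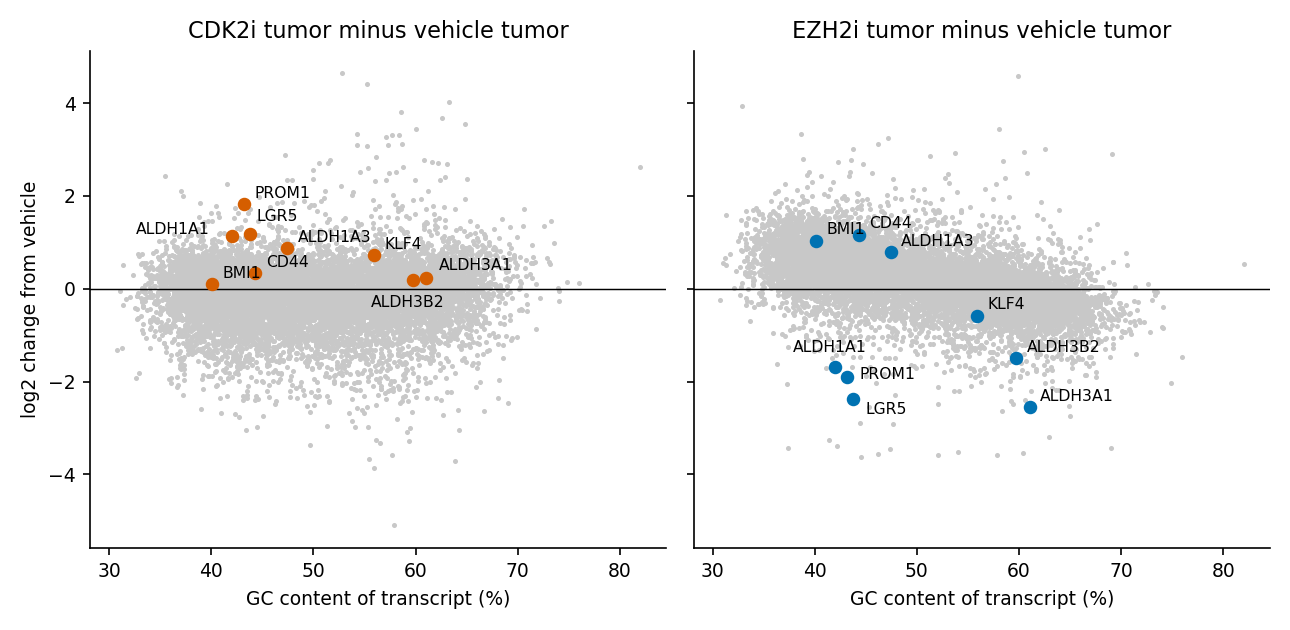
Log2 change from vehicle against the GC content (%) of the transcript for the expressed genes (grey) and the 9 genes (colored), in CDK2i and EZH2i. The grey cloud slopes down with GC content in EZH2i (Spearman rho -0.581) and not in CDK2i (0.0347), CD44 and BMI1 sit at the upper left of the EZH2i panel, and ALDH1A1 at 42.0% GC lies far below the cloud there.

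The genes nearest to each called gene in the pair of changes from vehicle were sought among genes with a mean log2 FPKM above 3. Nearest to ALDH1A1 were HSD11B2, which inactivates cortisol, at changes of 1.09 and -1.76, then ATP2A3, a calcium pump, and CALML5, a calcium-binding protein of the epidermis. Of the 6229 genes compared, 2 lay within a distance of 0.2 log2 units. ALDH1A1 itself averaged log2 FPKM 2.74, so genes at its own level were not among those compared. ALDH3B2 had 9 such neighbors, led by SPON2, TMEM238 and IGFBP5. CD44 had 72, led by MLLT4, MTR and SPCS3, and BMI1 had 110, led by IPO5, NUSAP1 and ETNK1. These distances rest on 3 tumors.

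In the retinoid pathway, the list of 19 genes for retinal synthesis, binding and response had 12 expressed members. In CDK2i RDH10, which makes retinal from retinol, was called higher at 1.23, and the receptor RARA was called lower, from 10.2 FPKM in vehicle to 2.73. RDH10 reached the minimum only through its CDK2i level. In EZH2i the retinal reductase DHRS3 changed by -1.32 and CRABP2, which carries retinoic acid to the nucleus, by -1.14, both called lower. CYP26B1, which degrades retinoic acid and is named here after its values were seen, was called higher by 1.13. That gene reached the minimum only through its EZH2i level. With the trend removed CRABP2 stood at -0.75 and lost its call, while DHRS3 and CYP26B1 stood at -1.20 and 1.02. The counts were 1 higher and 1 lower in CDK2i (background 0.731% and 1.8% of all genes) and 1 higher and 2 lower in EZH2i (2.23% and 1.1%). The medians of -0.11 and -0.02 lay at or under those of all expressed genes.

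Of the 16 expressed partners of CD44, 5 were called higher and 0 lower in EZH2i, and 1 was called in each direction in CDK2i. In EZH2i the background called higher was 2.23% of all genes and 8.93% of those past the minimum, and in CDK2i 0.731% of all genes were called higher and 1.8% lower. HAS3, a hyaluronan synthase, went from 8.74 FPKM in vehicle to 13.5 in CDK2i and 45.7 in EZH2i, a change of 2.39. MMP9, a protease that docks on CD44, stood at 20.0, 102 and 56.4 FPKM and was called higher in both tumors. HMMR, another hyaluronan receptor, was called higher at 1.18, as were MSN at 1.00, an actin linker of the CD44 tail, and ADAM17 at 1.18, a sheddase, both named after their values were seen. HMMR reached the minimum only through its EZH2i level. In CDK2i TNFAIP6, a hyaluronan-binding secreted protein, fell by 2.12 and was the only partner called lower. The list median in EZH2i was 0.59 as deposited and 0.09 with the trend removed, against 0.19 over all expressed genes. With the trend removed HAS3 and MMP9 stood at 2.17 and 1.82, while HMMR, MSN and ADAM17 stood at 0.59, 0.69 and 0.52.

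Around BMI1, all 15 PRC1 genes outside the list were expressed. In CDK2i CBX8 and CBX2, which read trimethylated lysine 27, were called lower at -1.44 and -1.36 (background 1.8% of all genes, 8.07% past the minimum), and none was called higher. In EZH2i 0 of 15 were called (background 3.33% of all genes in either direction), and the median of 0.21 was close to that of all genes. Around KLF4, 9 other KLF genes were expressed, and in CDK2i KLF10, KLF2 and KLF6 were called higher by 2.89, 2.10 and 1.38 (background called higher 0.731% of all genes and 3.27% of those past the minimum). KLF10 went from 13.5 FPKM in vehicle to 99.7, while KLF2 reached the minimum only through its CDK2i level. All 3 are transcription factors often induced early after a stimulus, and 0 of 9 were called in EZH2i (3.33% in either direction). Of the pluripotency factors only MYC was expressed, at 79.7, 182 and 65.5 FPKM in the vehicle, CDK2i and EZH2i tumors. It was called higher in CDK2i at 1.20 (background 0.731% of all genes and 3.27% of those past the minimum). NANOG, DPPA4 and ZFP42 were listed at 0 in all 3 tumors and are named after their values were seen. Around LGR5, 6 of the 17 genes for R-spondin and WNT receptors and targets found in the table were expressed. EPHB3 alone was called, lower in CDK2i at -1.43 (background called lower 1.8% of all genes and 8.07% of those past the minimum).

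Of the basal and mammary stem cell list 9 genes were expressed, and 3 were called higher in each treated tumor (background 0.731% in CDK2i and 2.23% in EZH2i over all genes, 3.27% and 8.93% past the minimum). In CDK2i these were KRT14, ITGA6 (CD49f) and KRT5, at 1.35, 1.32 and 1.17. In EZH2i ITGA6, ITGB1 and TP63 were called higher at 1.73, 1.44 and 1.13, TP63 being named after its values were seen. With the trend removed these 3 stood at 1.05, 0.71 and 0.50. The list median was 0.79 in CDK2i and 0.18 in EZH2i. All 5 expressed luminal progenitor genes, of 9 listed, fell in EZH2i (background called lower 1.1% of all genes and 4.42% of those past the minimum), and none was called in CDK2i (2.53% in either direction). The rest of the list, KIT, ELF5, LTF and TNFRSF11A, was not expressed, at 0.402, 0.0486, 0.160 and 0.447 FPKM in vehicle. Their EZH2i changes were -0.61, -1.06, -1.48 and 0.24. FOLR1, the folate receptor, changed by -1.85 in EZH2i, KRT15 by -1.77, CD14 by -1.35 and SLPI, a secreted protease inhibitor, by -1.05. GABRP, named after its values were seen, changed by -1.03. With the trend removed SLPI stood at -0.69 and lost its call, and the other 4 kept theirs. Their median was -1.35 in EZH2i and -1.48 with the trend removed, and 0.59 in CDK2i. Of the 9 expressed other surface markers of tumor-initiating cells, among them EPCAM, ALCAM and CD47, none was called in either tumor, with medians of 0.16 and 0.29. The background called in either direction was 2.53% of all genes in CDK2i and 3.33% in EZH2i.

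**Figure D5:**
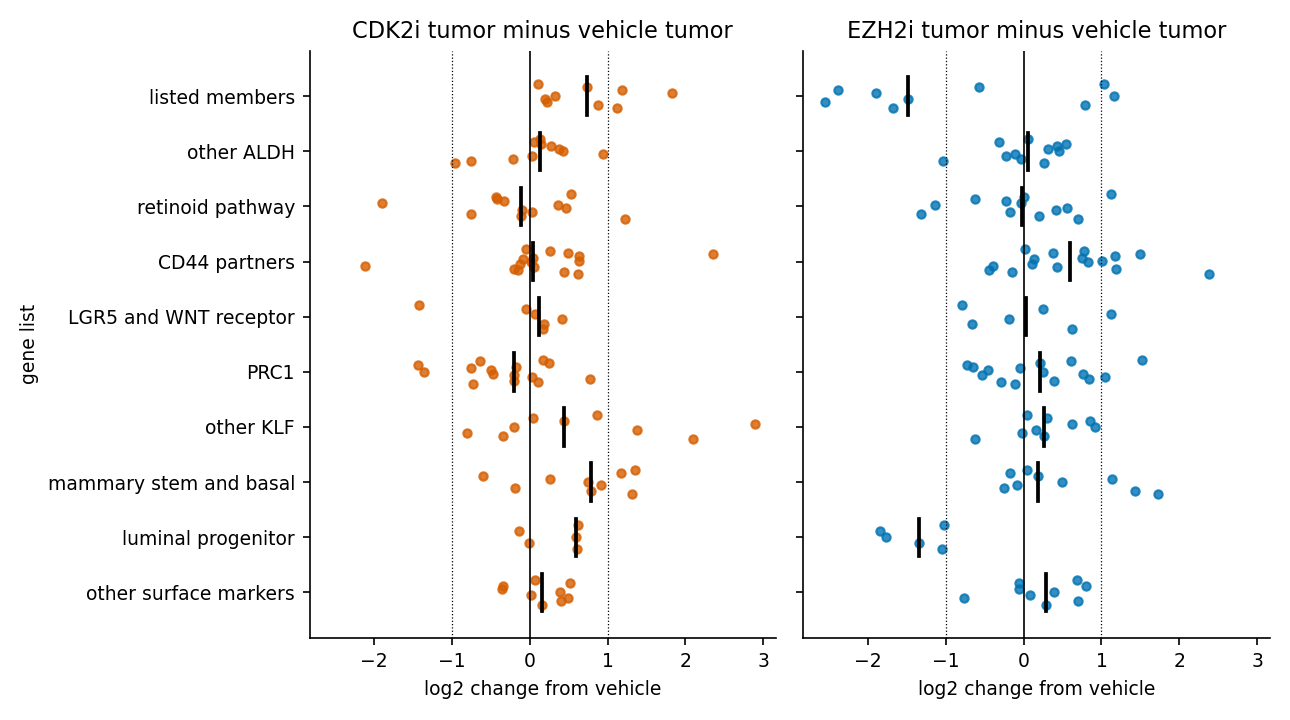
Log2 change from vehicle of the 9 genes and of the expressed genes of each wider list with more than 1 of them (1 point per gene), with the median as a black bar and dotted lines at a fold of 2, in the CDK2i and EZH2i tumors. The 5 luminal progenitor genes lie between -1.85 and -1.03 in EZH2i, and KLF10 at 2.89 is the highest of the KLF genes in CDK2i.

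Markers of the cell types present were read beside these values. All 8 epithelial markers were above 1 FPKM in every tumor, and their summed level was 6392, 13250.0 and 5393 FPKM in the vehicle, CDK2i and EZH2i tumors, mostly keratins. The largest CDK2i rises were in KRT14, KRT5 and KRT17, from 2458, 1873 and 619.9 FPKM in vehicle to 6269, 4217 and 1519. KRT19 alone of these markers was lower in CDK2i than in vehicle, at 883 against 1144 FPKM. The CDK2i tumor thus had the highest summed level of epithelial markers beside its high values for ALDH1A1, KLF4 and CD24P4. What part the level of these markers had in those values was not tested. Of the hormone receptors and HER2, ESR1 lay between 0.792 and 1.10 FPKM, PGR at 0.0042 or less, and ERBB2 between 21.9 and 30.4. The 4 lymphocyte markers in the table summed to at most 0.212 FPKM, the 3 endothelial ones to at most 0.833, and of the 5 macrophage ones only CD14, also on the luminal progenitor list, was above 1 FPKM. Of the fibroblast markers, 6 of 6 in the table summed to between 24.4 and 38.3 FPKM with COL1A1 the highest. Of the 3 adipocyte markers FABP4 fell from 32.6 FPKM in vehicle to 3.03 in EZH2i, and ADIPOQ was at or near 0. PLIN1 changed little, at 0.626, 0.602 and 0.464 FPKM in the vehicle, CDK2i and EZH2i tumors. Reads from mouse host cells that aligned to human genes would be counted in these values, and their part in the changes was not tested.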

How the data were processed

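RNA from 3 SUM-149 xenograft tumors (vehicle, CDK2i and EZH2i, 1 library each) was sequenced at NOVOGENE. The submitters' processing notes name CASAVA and STAR and the build hg19 (GRCh37), and the tool that counted fragments is not given in the sources used here. The authors deposited log2 FPKM per gene symbol, with -9 standing for an FPKM of 0. The study's limma test needs replicates and was not run, and its fold threshold (above 2) and expression minimum (log2 FPKM above 3) were kept. Changes are differences of log2 FPKM without a pseudocount.

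Symbols were matched to GENCODE 44 on GRCh37 for position, GC content and length (18852 directly and 1492 through older symbols). Depth and approximate fragments were recovered from the FPKM step and exon lengths. The trend on GC content and length was a polynomial of degree 3 over expressed genes, with a constant term that was subtracted as well. Scripts used Python 3.11.15, numpy 2.4.6, pandas 2.3.3, scipy 1.17.1 and blastn 2.17.0 (e-value 1e-10, word size 16), and were tested on simulated data. The genes, the 10 wider lists and the rules were chosen with earlier results of these data known. Of each wider list, at most 4 called genes were named, by the largest absolute change, besides the 3 nearest neighbors of each called gene and the cell type markers. Exceptions are stated where they occur, apart from 2 sets outside this rule. KIT, ELF5, LTF and TNFRSF11A were named to complete the luminal progenitor list, and ALCAM and CD47 as examples of theirs. The number of fragments limits the precision of PROM1, LGR5 and ALDH3A1.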

Additional observations from a re-analysis of the deposited data

Results flagged for a closer look

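The row CD24P4, which was not on the list and was set beside CD44 after its values were seen, held 266 FPKM in the vehicle tumor. This level ranked above 99.2% of the genes with an FPKM above 0 in that tumor. It stood out as a signal under the name of a pseudogene on chromosome Y, while the other 10 chromosome Y genes reached at most 0.119 FPKM and CD24 itself had no row. Its source was not tested.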

How the results depend on the processing

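The number of genes called higher in CDK2i (1 as deposited) was 0 with equal sums over genes other than ribosomal protein and mitochondrial ones, where ALDH1A1 changed by 0.98, 0 at a fold above 3, 0 at a minimum of log2 FPKM 5, 2 at a fold above 1.5 and 3 without a minimum. The number called higher in EZH2i (2) was 1 with a pseudocount of 1, 0 with the libraries centred on their medians, 0 with the GC and length trend removed, 0 at a fold above 3 and 1 at a minimum of 5. The number called lower in EZH2i (1) was 0 at a fold above 3, 3 at a minimum of 1 and 5 without a minimum. Without a minimum the added genes included PROM1 and LGR5, which rest on about 12 and 2 fragments in EZH2i. The share of all genes called under these other settings is not given, so the counts cannot be set against a background. The summed ALDH level changed in CDK2i by 0.30 as deposited, 0.48 with median centring, 0.44 with equal sums, 0.15 with equal sums over those other genes and 0.45 with the trend removed. In EZH2i it changed by -1.47 as deposited, and by -1.71, -1.22 and -1.31 under the first 2 of these and the last. The CD44 to CD24P4 ratio changed by -0.70 and 1.10 with the trend, and the shift between libraries with it, removed from CD44 but not from CD24P4. This alternative was chosen after seeing the data, as was the use of CD24P4. Of the single-gene changes recomputed under other scalings and pseudocounts, 37 stayed within the gene's counting interval and 17 did not in each comparison, and no called gene changed direction. Medians of the wider lists moved by over 0.2 in 3 recomputations for CDK2i and 26 for EZH2i. The planned CD44 to CD24 ratio could not be run without a CD24 row. Leaving out a library was not possible, and no paired analysis was possible because each condition had 1 library. Beyond counting error, no error can be given for any change.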
